A study of Drosophila melanogaster with 32 samples.

Results

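The larval serum protein genes and the salivary glue protein genes of Drosophila melanogaster were followed through 4 groups of brain preparations from larvae of instar 3. The set holds 10 of the 14161 genes in the deposited count table and was chosen by name: 4 serum protein genes (Lsp1alpha, Lsp1beta, Lsp1gamma and Lsp2) and 6 glue genes (Sgs1, Sgs3, Sgs4, Sgs5, Sgs7 and Sgs8). None of these genes is known as a gene of neurons, so in a brain preparation they stand as markers of stage and of tissue outside the brain. The 4 groups were ato IP, wild-type IP, ato input and wild-type input. All 4 carried the driver ipcGal4 and the transgene UASRpl10Ab::GFP, which puts a GFP-tagged ribosomal protein into the cells where the driver is active, named by the study as those of T4 and T5 neurons. The ato groups also carried the allele ato1, labelled a loss of function of the proneural gene ato. An input library came from 10% of the homogenate of 500 brains and samples the whole preparation, and an IP library came from the remainder after precipitation with antibodies to GFP. Flies were kept at 25 degrees. The sex of the larvae and any narrower staging within the instar are not stated in the labels. Nothing in the labels says how the 2 replicates of a group were made apart, so p-values measure the spread between these libraries only.

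Larval serum proteins are hexamerins, storage proteins that the fat body makes in the last larval instar, secretes into the hemolymph and later takes up again as a store of amino acids for metamorphosis. Lsp1alpha, Lsp1beta and Lsp1gamma encode the subunits of larval serum protein 1, and Lsp2 encodes that of larval serum protein 2. Glue proteins are made in the salivary glands in the later part of the same instar and are expelled at pupariation, when they fix the puparium to its support. Ecdysone, the moulting steroid, switches the glue genes on and then, at its high late larval peak, off again.

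The 8 libraries held 7780123 to 12238648 counts each, from 4 runs a library. Of 14161 genes, 10224 passed the filter on low counts, all 10 serum and glue genes among them. Level is given as CPM, the library's count scaled to its total with TMM factors, and 3 counts, taken as the floor, stood at 0.245 to 0.386 CPM before that scaling. Brain markers were present throughout. The summed level of 7 neuronal, glial and neuroblast genes was 886 and 889 CPM in the ato IPs and 1040 and 907 CPM in the wild-type IPs. In the inputs it was 762 and 844 CPM in ato and 799 and 857 CPM in wild type.

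In the inputs, genes of both kinds differed between genotypes, in opposite directions. There 2 of the 4 serum protein genes, Lsp1alpha and Lsp1gamma, were higher in ato, and 4 of the 6 glue genes, Sgs3, Sgs5, Sgs7 and Sgs8, were lower in ato (edgeR quasi-likelihood test, adjusted p below 0.05). Over all genes tested in the inputs, 4.67% were called higher, 2.51% lower and 7.18% either way. In the IPs the glue gene Sgs7 was lower in ato and no serum protein gene passed, against 2.84% of all genes called higher, 2.03% called lower and 4.87% called either way. Counted by libraries that do not overlap, all 4 serum protein genes were higher and 5 glue genes lower in the ato inputs, where 27.6% of all tested genes were so higher and 26.4% so lower. In the ato IPs 3 serum protein genes were higher and 4 glue genes lower, against 21.7% and 23.8% of all tested genes. Sgs3, Sgs4, Sgs7 and Sgs8 passed the filter on low counts through the wild-type libraries, so a call higher in ato was hardly open to them. Their number lower in ato thus carries little weight beside the shares of all genes. The median log2 change of the 4 serum protein genes was 1.99 in the inputs and 1.54 in the IPs, and that of the 6 glue genes was -4.98 in the inputs and -2.39 in the IPs, while all tested genes had a median of 0.01 in the inputs and -0.03 in the IPs. With Sgs4, which had no count in either ato input, set at its bound, the glue median of the inputs was -3.93. The count of called genes in the inputs, 6 in all, was 1 without ato input 1, and 4 without either wild-type input. In the IPs the 1 call became 5 without wild-type input 2, 4 without wild-type input 1, 3 without wild-type IP 1 and 2 without either ato input. These are bulk preparations, so fewer cells of a type and less RNA per cell cannot be told apart.

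The Lsp1alpha gene lies on chromosome X at 12384416 to 12386933 in the fly build dm3, on the plus strand, with 2 exons. Its level was 15.8 and 9.81 CPM in the ato IPs, against 4.88 and 0.811 CPM in the wild-type IPs. In the inputs it was 6.04 and 7.67 CPM in ato, against 1.31 and 0.195 CPM in wild type, where wild-type input 2 held 2 counts. The groups did not overlap in either comparison. The input difference was 8.72-fold (log2 3.12 with an SE of 0.77 over 2 libraries a group; adjusted p = 0.0163 by edgeR). In the IPs the log2 value was 2.14 ± 0.69 with an adjusted p of 0.0902, which misses the threshold. The input log2 value was 5.04 without wild-type input 1 and 2.38 without wild-type input 2. Its input call was lost without ato input 1 (adjusted p = 0.0626), ato input 2 (0.0675) or wild-type input 2 (0.138), and with 1 run per library (0.103).

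The Lsp1gamma gene lies on chromosome 3L at 66439 to 69003. Its level was 30.6 and 22.6 CPM in the ato IPs, against 14.0 and 6.76 CPM in the wild-type IPs, and 27.3 and 14.9 CPM in the ato inputs, against 9.40 and 3.62 CPM in the wild-type inputs. Every ato library was above both wild-type libraries of its kind. The input difference was 3.20-fold (log2 1.68 ± 0.44, edgeR adjusted p = 0.024), and that of the IPs was 1.34 ± 0.43 with an adjusted p of 0.087. The input log2 value was 1.14 without ato input 1, 1.16 without wild-type input 2 and 2.54 without wild-type input 1. The input call was lost without ato input 1 (adjusted p = 0.301) or wild-type input 2 (0.237), and without both wild-type libraries numbered 2 (0.0711).

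The Lsp1beta gene, on chromosome 2L at 898647 to 901318, was further apart between the wild-type inputs than any other serum protein gene. Its level was 46.9 and 45.0 CPM in the ato IPs, against 20.3 and 6.89 CPM in the wild-type IPs. It was 28.9 and 27.3 CPM in the ato inputs, against 10.2 and 0.977 CPM in the wild-type inputs. The groups did not overlap, but wild-type input 1 was 10.5 times wild-type input 2, and the log2 values of 2.29 ± 0.96 in the inputs (edgeR adjusted p = 0.26) and 1.74 ± 0.92 in the IPs (0.436) did not pass. Without both wild-type libraries numbered 1 the values were 4.82 in the inputs and 2.73 in the IPs. Without those numbered 2 they were 1.45 and 1.17. Each of these fits, chosen after seeing the data, leaves 1 wild-type library of a kind. The spread between wild-type libraries does not enter them, so they cannot decide whether the gene differs. With wild-type input 2 alone left out the input log2 value was 1.46, and with wild-type input 1 alone left out it was 4.83.

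The Lsp2 gene, with a single exon on chromosome 3L at 12122493 to 12124796, was at 63.6 and 28.4 CPM in the ato IPs, against 33.7 and 8.51 CPM in the wild-type IPs, and here the groups overlapped. In the inputs it was at 45.9 and 25.9 CPM in ato, against 21.1 and 4.79 CPM in wild type. The differences of 1.45 ± 1.01 in the inputs (edgeR adjusted p = 0.491) and 1.11 ± 0.99 in the IPs (0.68) were not called. Without both wild-type libraries numbered 1 they were 2.90 and 2.43, and without those numbered 2 they were 0.76 and 0.44. These fits too leave 1 wild-type library of a kind and were chosen after seeing the data. Taken over the 4 genes, the sum was 157 and 106 CPM in the ato IPs, against 72.9 and 23.0 CPM in the wild-type IPs, and 108 and 75.7 CPM in the ato inputs, against 42.0 and 9.58 CPM in the wild-type inputs. Replicate 1 was above replicate 2 for this sum in all 4 groups, by 1.48 times in the ato IPs, 3.17 times in the wild-type IPs, 1.43 times in the ato inputs and 4.39 times in the wild-type inputs.

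**Figure D1:**
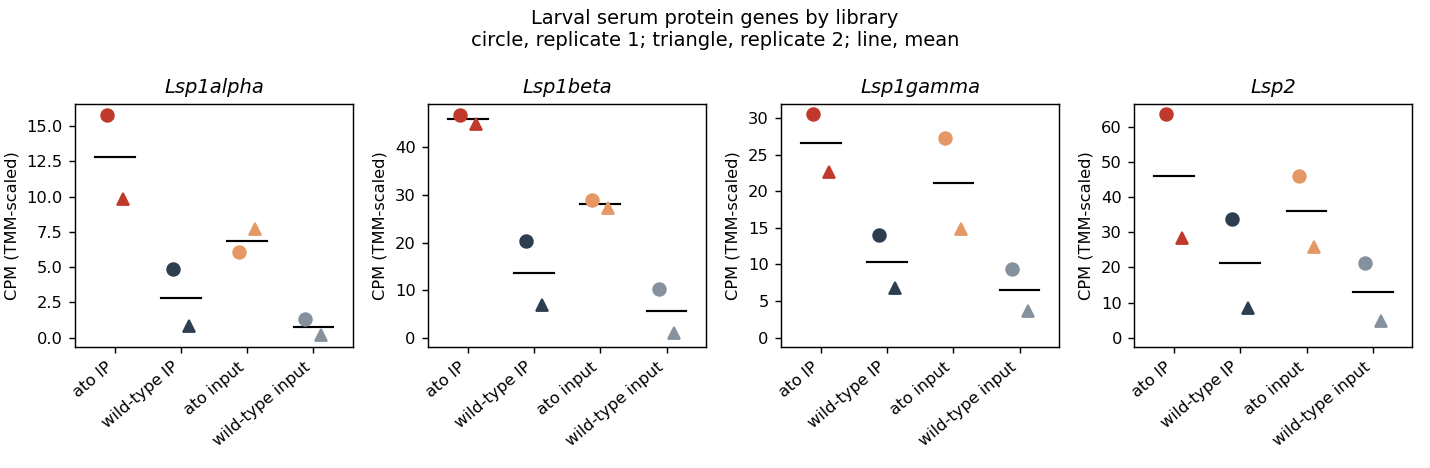
Level of each larval serum protein gene (CPM after TMM scaling, linear axes from 0) in the 8 libraries, with circles for replicate 1, triangles for replicate 2 and a line at the mean of the 2 libraries. For Lsp1alpha, Lsp1beta and Lsp1gamma both ato libraries lie above both wild-type libraries of the same kind, whereas for Lsp2 the wild-type IP 1 value of 33.7 CPM lies above the ato IP 2 value of 28.4 CPM.

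The make-up of the serum protein counts also differed by library. Lsp1alpha gave 10.1% and 9.27% of them in the ato IPs, against 6.70% and 3.53% in the wild-type IPs, and 5.58% and 10.1% in the ato inputs, against 3.11% and 2.04% in the wild-type inputs. Lsp2 gave the largest share in every library except ato IP 2 and ato input 2, where Lsp1beta did, with 26.9% to 50.2% over the 8 libraries. Lsp1gamma ranged from 19.2% to 37.8% and Lsp1beta from 10.2% to 42.5%. Per kilobase of exon the order of the mean levels was Lsp2, Lsp1beta, Lsp1gamma and Lsp1alpha in ato IP, wild-type IP and ato input, with 20 ± 10.8, 17.6 ± 0.519, 10.6 ± 2.25 and 5.23 ± 1.74 CPM per kilobase (SD, n = 2) in ato IP. The ranges of Lsp2 and Lsp1beta overlapped there. In wild-type input Lsp1gamma (2.60 ± 1.64) stood before Lsp1beta (2.15 ± 2.51), and their ranges overlapped too.

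Among the glue genes, Sgs7 carried most of the counts in wild type. Sgs7, Sgs8 and Sgs3 encode related glue proteins and lie side by side on chromosome 3L, at 11502961 to 11503347, 11502067 to 11502494 and 11505321 to 11506503, with 467 bases between Sgs8 and Sgs7 and 1974 bases between Sgs7 and Sgs3. No exon of any serum or glue gene overlapped that of another gene in the table. How reads that match several related copies were handled is not fully given by the file header, so the split of counts among the related glue genes and among the Lsp1 genes is uncertain.

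Sgs7 was at 1.84 and 1.12 CPM in the ato IPs, against 34.3 and 29.6 CPM in the wild-type IPs, and at 0.252 and 0 CPM in the ato inputs, against 26.5 and 12.3 CPM in the wild-type inputs. The ato inputs held 2 counts of Sgs7 in all, both from a single run of ato input 1, and the wild-type inputs 450. Scaled to the library totals that is a ratio of 182, with a 95% counting interval of 50.1 to 1510, and the edgeR adjusted p was 1.28e-06. In the IPs Sgs7 was 21.4-fold lower in ato (log2 -4.42 ± 0.48, adjusted p = 1.17e-05), with 15 and 9 counts in ato against 323 and 219 in wild type. It is the only serum or glue gene called in both comparisons between genotypes. Both calls held in each of the 8 fits that left out a library.

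Sgs3, a mucin-like glue protein gene, had 2 and 4 counts in the ato IPs, against 45 and 27 in the wild-type IPs, and 0 and 1 in the ato inputs, against 87 and 17 in the wild-type inputs. The input ratio was 84.2, with a 95% counting interval of 14.8 to 3360 and an edgeR adjusted p of 0.00632. The IP log2 value, -3.46 ± 1.04, missed the threshold in edgeR (0.0618) and passed it in DESeq2 (0.0345). Sgs8 had 8 and 2 counts in the ato IPs, against 29 and 18 in the wild-type IPs, and 0 and 6 in the ato inputs, against 86 and 30 in the wild-type inputs. Its input value was 15-fold lower in ato (log2 -3.90 ± 1.12, adjusted p = 0.0389) and its IP value of -2.14 ± 1.05 was not called (0.305). In both genes and both comparisons the ato libraries lay below the wild-type libraries.

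Sgs5, on chromosome 3R at 13421084 to 13421834, overlapped between genotypes in the IPs. It was at 3.31 and 6.09 CPM in the ato IPs, against 6.16 and 5 CPM in the wild-type IPs. In the inputs it was at 0 and 0.707 CPM in ato, against 9.49 and 2.64 CPM in wild type, 15.6-fold lower in ato (log2 -3.96 ± 0.93, edgeR adjusted p = 0.0117). The IP value was -0.25 ± 0.75 (0.92) and turned to 0.14 without ato IP 1. The input calls of Sgs3, Sgs5 and Sgs8 were lost without ato input 1 (0.05, 0.074 and 0.198) or wild-type input 1 (0.12, 0.166 and 0.283). With 1 run per library those of Sgs3 (0.0973) and Sgs5 (0.0818) were lost too. The fitted input log2 value of Sgs5 was -3.12 without ato input 1, -2.77 without wild-type input 1 and -4.60 without wild-type input 2. That of Sgs8 was -3.06, -3.15 and -4.40 in the same fits. Without ato input 2 the ato inputs held no count of either gene.

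Sgs4 lies on chromosome X at 3143534 to 3145073, between exons of dnc and within the span of that gene. It had 5 and 2 counts in the ato IPs, against 18 and 27 in the wild-type IPs, and 0 and 0 in the ato inputs, against 19 and 7 in the wild-type inputs. Relative to a floor of 3 counts over the ato inputs, it was at least 7.01-fold lower there than in the wild-type inputs. The input test gave an edgeR adjusted p of 0.0601, and 0.038 with the DESeq2 Wald test. The IP value of -2.64 ± 1.2 was not called (0.26). The count of dnc itself, whose transcript is that of a cAMP phosphodiesterase, did not pass either, with log2 values of 0.55 ± 0.19 for the inputs (0.0924) and 0.27 ± 0.19 for the IPs (0.509).

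Sgs1, which encodes a large mucin-like glue protein and lies on chromosome 2L at 4937409 to 4941424, was near the floor in every library. It had 3 and 12 counts in the ato IPs, against 12 and 5 in the wild-type IPs, and 0 and 2 in the ato inputs, against 0 and 2 in the wild-type inputs. A difference between genotypes was not detectable at this depth, with edgeR adjusted p of 0.987 in the IPs and 0.975 in the inputs.

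**Figure D2:**
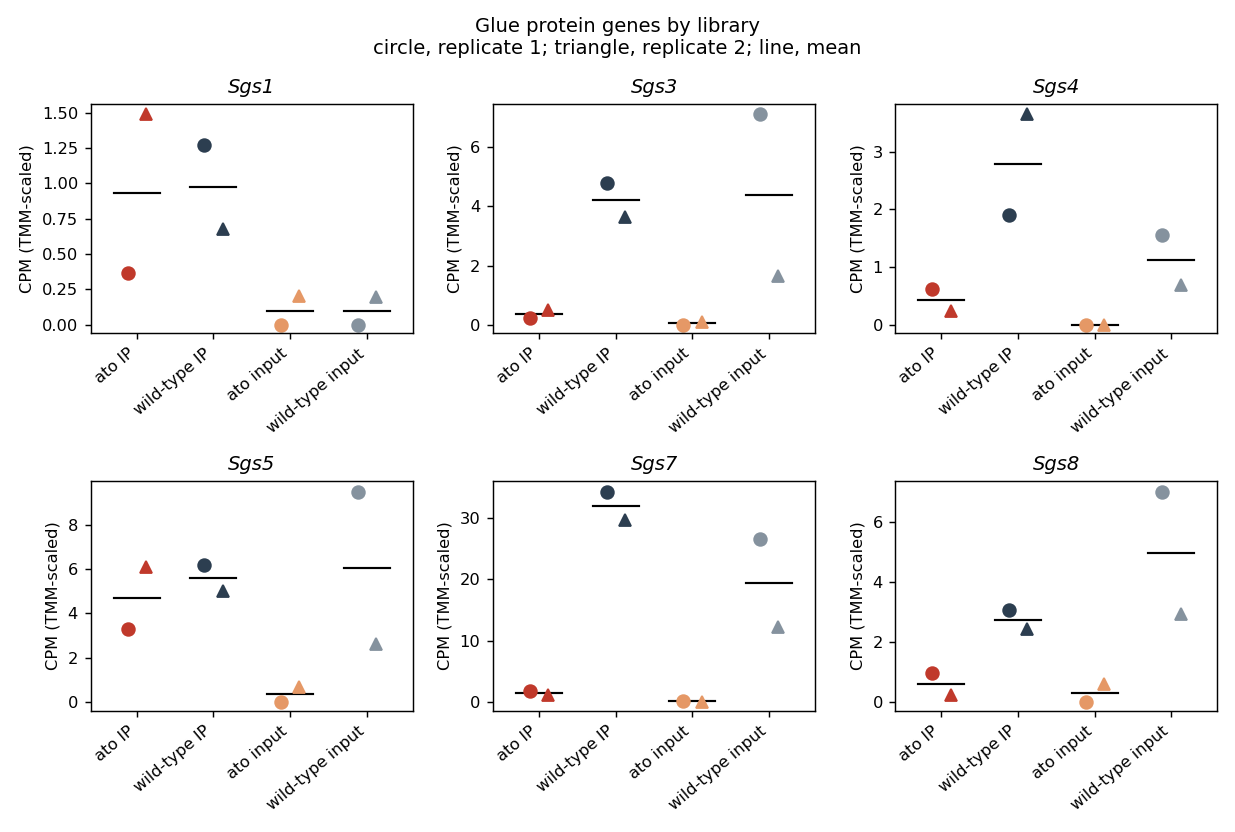
Level of each glue protein gene (CPM after TMM scaling, linear axes from 0) in the 8 libraries, with circles for replicate 1, triangles for replicate 2 and a line at the mean of the 2 libraries. Sgs3, Sgs4, Sgs7 and Sgs8 were low in all 4 ato libraries, Sgs5 was low in the ato inputs but at 3.31 and 6.09 CPM in the ato IPs, and Sgs1 stayed at or under 1.49 CPM.

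Per kilobase of exon, Sgs7 was the most abundant gene of the set in wild type, at 99.5 ± 10.3 CPM per kilobase (SD, n = 2) in the wild-type IPs and 60.4 ± 31.2 in the wild-type inputs. Next in the wild-type IPs came Lsp2 (9.17 ± 7.74), Sgs5 (8.77 ± 1.28) and Sgs8 (7.67 ± 1.27), whose ranges overlap. In ato IP the corresponding Sgs7 level was 4.61 ± 1.59 and in ato input 0.392 ± 0.554, which put it at rank 6 and rank 7 of the 10 genes. The whole glue set summed to 7.36 and 9.69 CPM in the ato IPs, against 51.5 and 45.0 CPM in the wild-type IPs, and to 0.252 and 1.62 CPM in the ato inputs, against 51.7 and 20.4 CPM in the wild-type inputs. Glue counts were 0.0469 and 0.0915 times the serum protein counts in the ato IPs, against 0.706 and 1.96 times in the wild-type IPs, and 0.00233 and 0.0213 times in the ato inputs, against 1.23 and 2.13 times in the wild-type inputs. The 4 ato libraries thus lay at low glue and high serum values, as the plot of summed levels shows.

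**Figure D3:**
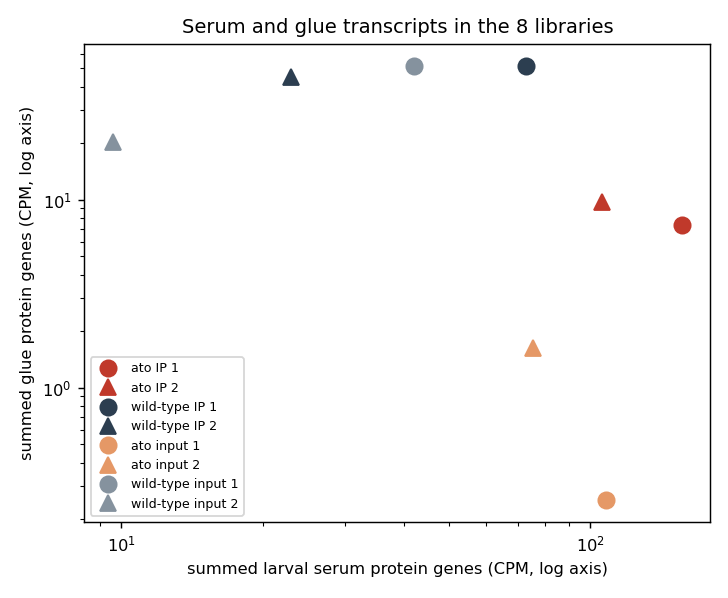
Summed CPM of the 4 serum protein genes (x axis) against that of the 6 glue genes (y axis), both on log axes, with a point for each of the 8 libraries. The ato libraries lie at 75.7 to 157 CPM of serum and 0.252 to 9.69 CPM of glue transcripts, and the wild-type libraries at 9.58 to 72.9 CPM of serum and 20.4 to 51.7 CPM of glue transcripts.

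**Figure D4:**
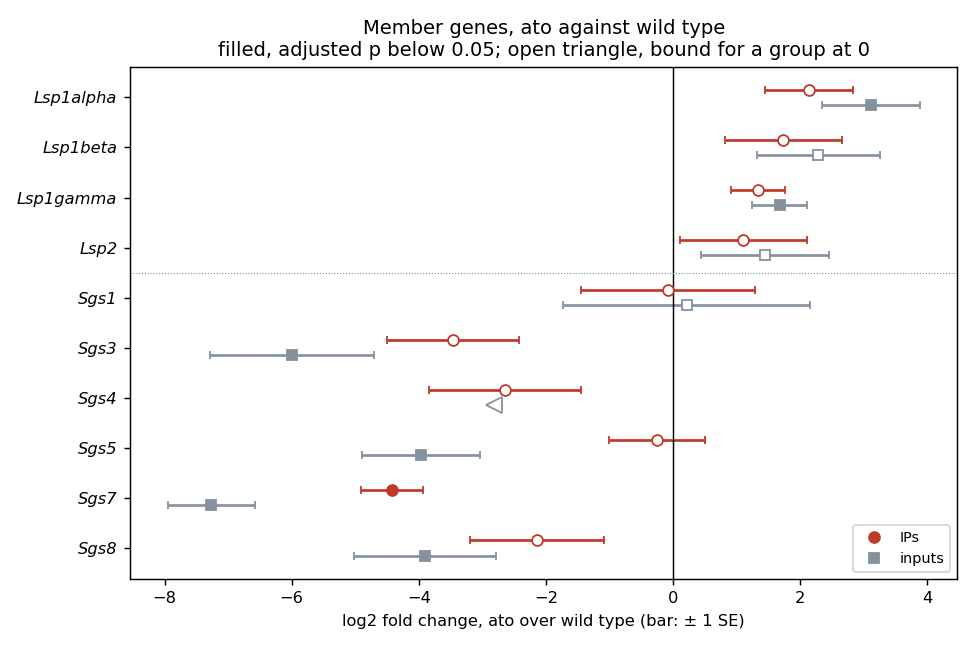
Fitted log2 fold change of each gene, ato over wild type, with bars of 1 SE, in the IPs (circles) and in the inputs (squares), where filled points have an adjusted p below 0.05 and the open triangle is the bound for Sgs4, which had no count in the ato inputs. The 4 serum protein genes lie at 1.11 to 3.12 and the glue genes other than Sgs1 at -0.25 to -7.27, and the fitted input values of Sgs3 and Sgs7 rest on 1 and 2 counts in ato.

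Within a genotype, the comparison of IP with input asks which transcripts were enriched by the precipitation. The 4 groups hold no IP from brains without the tag, so background in the IP cannot be told apart from tagged ribosomes. The IPs also held counts of more genes, 12533 and 11774 in ato against 10850 and 10899 in the ato inputs. In wild type it was 12189 and 12010 in the IPs against 10368 and 10509 in the inputs. The bearing of this on genes near the floor was not tested. In wild type, no serum or glue gene was called by edgeR in either direction, against 17.7% of all genes called higher, 18.6% called lower and 36.3% called either way, and 1 of the 10 had an unadjusted p below 0.05. That gene was Lsp1alpha, at 4.88 and 0.811 CPM in the IPs against 1.31 and 0.195 CPM in the inputs (log2 1.89 ± 0.78, adjusted p = 0.0665). The DESeq2 Wald test also called 0 of the 10, the fit with no filter called 1, and the fits without wild-type IP 2 and without wild-type input 1 called 1 and 3. Libraries did not overlap for 3 glue genes, all higher in the IPs, against 36.1% of all tested genes higher and 33.6% lower. The median log2 difference was 0.98 over the serum protein genes and 0.33 over the glue genes, against 0.06 over all genes tested.

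In ato, 2 glue genes were higher in the IP than in the input, against 12% of all genes called higher, 16.4% called lower and 28.5% called either way. Libraries did not overlap for 2 serum protein genes and 5 glue genes, all higher in the IPs, beside 31.6% of all tested genes higher and 32.6% lower. Sgs5 had 27 and 49 counts in the ato IPs, against 0 and 7 in the ato inputs, and was 12-fold higher (log2 3.59 ± 0.93, edgeR adjusted p = 0.00751). Sgs7 had 15 and 9 counts in the ato IPs, against 2 and 0 in the ato inputs, a ratio of 13.4 with a 95% counting interval of 3.33 to 117 (adjusted p = 0.00608). The Sgs5 call was lost without ato input 1 (0.0538). The Sgs7 call was lost without ato IP 1 (0.0503) or ato input 2 (0.0759), and with 1 run per library neither was called (0.211 and 0.0721). The serum protein genes had log2 values of 0.34 to 0.90 in ato, none of them called in the model of all 4 groups, and Lsp1beta passed with only these 2 groups fitted (0.73, 0.0231).

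Whether the IP-over-input ratio itself differed between genotypes was tested as an interaction. No gene of the table passed in edgeR or in the DESeq2 Wald test, while 434 of the 10224 genes had an unadjusted p below 0.05, and 5 and 10 genes were called with no filter and with the replicate block, no serum or glue gene among them. Sgs5 (log2 3.71 ± 1.19, unadjusted p = 0.00572, adjusted p = 0.995) and Sgs7 (2.85 ± 1.01, unadjusted p = 0.0113, adjusted p = 0.995) were the serum and glue genes with the smallest unadjusted values. The Sgs5 call within ato is therefore not shown to be a difference from wild type.

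Among other genes of the fat body, Tsf1 was higher in ato. Of 12 fat body genes listed beside them, 9 were tested and edgeR called 1, Tsf1, in the inputs and in the IPs alike. DESeq2 called 2 in the inputs and 1 in the IPs, and edgeR with no filter called 2 in each. Tsf1, which encodes the iron carrier transferrin of the hemolymph, was at 158 and 115 CPM in the ato inputs, against 16.8 and 14.2 CPM in the wild-type inputs (8.78-fold, log2 3.13 ± 0.27, edgeR adjusted p = 1.18e-06). In the IPs it was at 306 and 203 CPM in ato, against 92.3 and 54.3 CPM in wild type (3.46-fold, 1.79 ± 0.25, 0.000244). The apolipophorin gene Rfabg missed the threshold, with log2 0.71 ± 0.22 for the inputs (0.0635) and 0.66 ± 0.22 for the IPs (0.101). The median over the 9 genes was 0.29 in the inputs and 0.07 in the IPs. Summed over the list the level was 838 and 648 CPM in the ato IPs, against 555 and 444 CPM in the wild-type IPs, and 1280 and 966 CPM in the ato inputs, against 1050 and 747 CPM in the wild-type inputs. Most of the input sums came from regucalcin, at 893 and 674 CPM in ato and 840 and 624 CPM in wild type. It was at 190 and 210 CPM in the ato IPs and 181 and 200 CPM in the wild-type IPs. Between the genotypes regucalcin was not called in the inputs (log2 0.0975 ± 0.181, edgeR adjusted p = 0.808). Adh, which was not among the genes tested, had 1 and 0 counts in the ato IPs, against 9 and 3 in the wild-type IPs, and none in any input.

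Fbp1 and Fbp2, fat body genes whose products belong with the storage proteins and their uptake or to the alcohol dehydrogenase family, were singled out after their values were seen. Fbp1 was at 93.7 and 16.1 CPM in the ato IPs, against 61.9 and 14.3 CPM in the wild-type IPs, and 61.0 and 8.89 CPM in the ato inputs, against 34.1 and 6.55 CPM in the wild-type inputs. It was thus high in replicate 1 and low in replicate 2 of every group, and was not called between genotypes (edgeR adjusted p = 0.843 in the inputs and 0.924 in the IPs). Fbp2 was at 13.3 and 16.0 CPM in the ato inputs, against 12.1 and 2.15 CPM in the wild-type inputs, which do not overlap but did not pass (0.297).

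Other salivary gland genes were found on both sides of 0. Of 21 listed, 7 were tested and 0 were called between genotypes in either kind of library by edgeR. The median log2 value of the 7 was 1.72 in the inputs and 1.51 in the IPs, opposite in sign to that of the glue genes. At an unadjusted p below 0.05 there were 4 in the inputs and 1 in the IPs, and DESeq2 called 0 in each. With no filter edgeR called 1, higher in the ato inputs. fkh, a transcription factor gene needed in the gland and for glue gene activity, was at 43.7 and 48.3 CPM in the ato inputs, against 40.4 and 53.8 CPM in the wild-type inputs (log2 -0.03 ± 0.22, adjusted p = 0.961). The bHLH gene sage was at 1.13 and 1.01 CPM in the ato inputs, against 1.31 and 2.74 CPM in the wild-type inputs (-0.90 ± 0.84, 0.572). Pig1, a gland gene active before the glue genes, lies 212 bases from Sgs4. It had 59 and 28 counts in the ato IPs, against 20 and 12 in the wild-type IPs, and 30 and 7 in the ato inputs, against 9 and 6 in the wild-type inputs, a log2 value of 1.72 ± 0.94 in the inputs (0.299). Eig71Ee, an ecdysone-induced gene of the list, lay on the side of the glue genes. It had 3 and 7 counts in the ato IPs, against 17 and 23 in the wild-type IPs, and 0 and 9 in the ato inputs, against 32 and 45 in the wild-type inputs. Neither pair of groups overlapped, and the log2 values of -2.85 ± 1.16 in the inputs (0.162) and -1.96 ± 1.15 in the IPs (0.414) missed the threshold. The new glue gene ng3, singled out after its values were seen, had 82 and 0 counts in the ato IPs, against 1 and 0 in the wild-type IPs, and 113 and 8 in the ato inputs, against 3 and 0 in the wild-type inputs. Its counts came largely from the ato libraries numbered 1. In the inputs ng1 had 47 and 0 counts in ato and ng2 had 18 and 0, against none in wild type. In the IPs ng1 had 35 and 0 counts in ato, against 2 and 2 in wild type. There ng2 had 7 and 14 counts in ato, against none in wild type. None of ng1, ng2 and ng3 was called in the inputs (edgeR adjusted p = 0.136, 0.144 and 0.22). They passed the filter through ato libraries only, so a call lower in ato was hardly open to them.

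**Figure D5:**
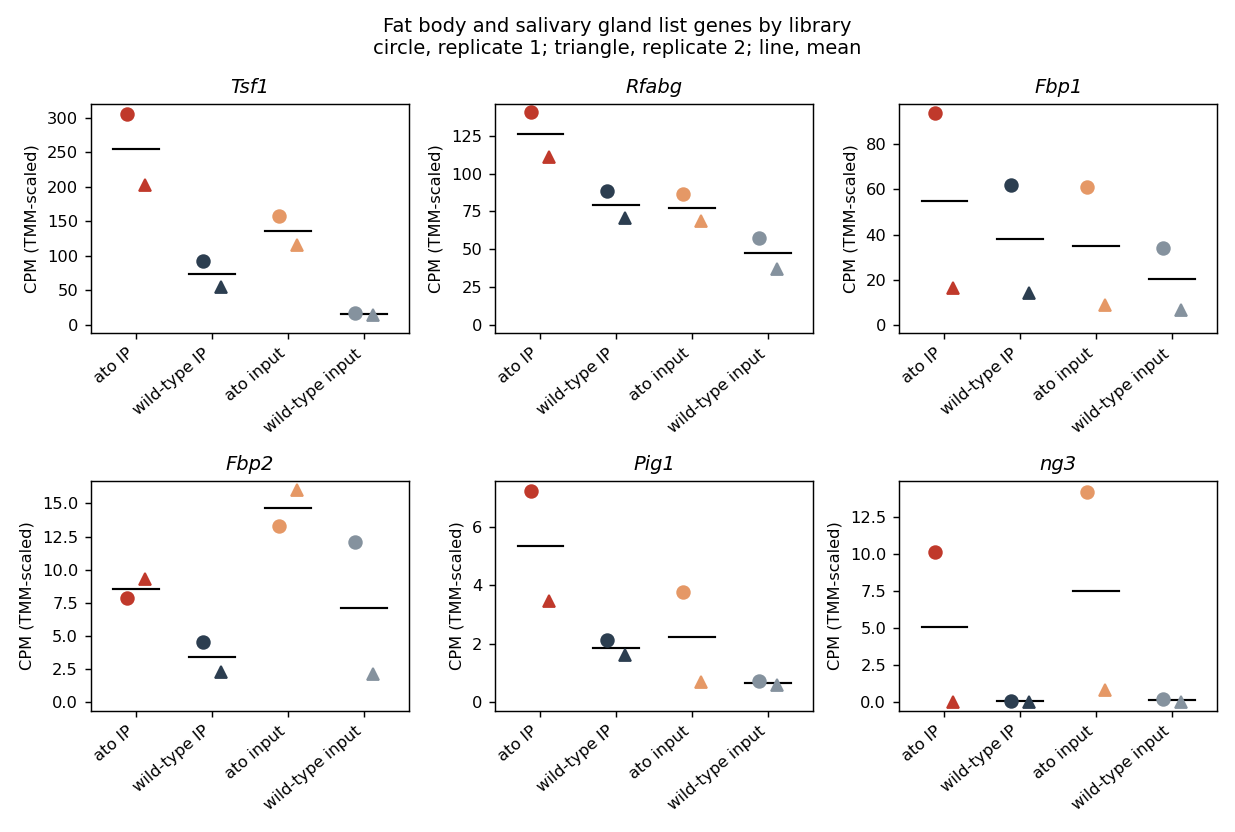
Level (CPM after TMM scaling, linear axes from 0) of 4 fat body genes (Tsf1, Rfabg, Fbp1 and Fbp2) and 2 salivary gland genes (Pig1 and ng3) in the 8 libraries, with circles for replicate 1, triangles for replicate 2 and a line at the mean. The genes drawn were picked from the lists by hand, and all had fitted input log2 values above 0. Tested genes of the lists that are not drawn lay on both sides of 0 in the inputs, from Eig71Ee at -2.85 to ng1 at 7.75. Tsf1 was higher in ato, Fbp1 differed by replicate number in every group (93.7 against 16.1 CPM in the ato IPs, for example), and ng3 was at 10.1 and 14.2 CPM in the ato libraries numbered 1 and at or under 0.808 CPM elsewhere.

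The ecdysone response genes, a list of 17 with 16 tested, moved with genotype as well. In the inputs 8 were lower and 2 higher in ato, and in the IPs 8 were lower and 0 higher, beside the 2.51% and 2.03% of all genes called lower. Lower in the inputs were br (log2 -0.75 ± 0.20, edgeR adjusted p = 0.0272), which encodes a zinc finger factor of the early ecdysone response, the nuclear receptor genes Eip75B (-0.63 ± 0.15, 0.0155), Eip78C (-2.05 ± 0.29, 0.00012), Hr39 (-1.07 ± 0.19, 0.00148) and Hr46 (-1.06 ± 0.31, 0.0443), and Eip93F, Blimp-1 and ImpE2. The genes higher in the inputs were ftz-f1 (1.72 ± 0.37, 0.00597), a nuclear receptor gene of the prepupal response, and ImpL1 (2.83 ± 0.73, 0.0427). The receptor genes EcR (-0.04 ± 0.17, 0.927) and usp (-0.09 ± 0.18, 0.827) did not pass. Their part in the glue and serum values was not tested.

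Markers of some other tissues went with genotype too. Over all genes tested, as given above, 4.67% were called higher and 2.51% lower in the inputs, and 2.84% and 2.03% in the IPs. Of 11 muscle markers, 8 were higher in the ato inputs and 7 in the ato IPs, and the list summed to 2230 and 1270 CPM in the ato IPs, against 1160 and 1070 CPM in the wild-type IPs, and 1080 and 705 CPM in the ato inputs, against 767 and 825 CPM in the wild-type inputs, where the sums overlapped. Of 9 hemocyte markers, 4 were higher in the ato inputs and 3 in the ato IPs, with sums of 406 and 406 CPM in the ato IPs, against 312 and 264 CPM in the wild-type IPs, and 410 and 390 CPM in the ato inputs, against 269 and 194 CPM in the wild-type inputs. Of 7 gut markers, 4 were tested, 3 were higher in the ato inputs and 2 in the ato IPs, and the sum of the list was 31.6 and 125 CPM in the ato inputs, against 0 and 0 CPM in the wild-type inputs, and 15 and 61.9 CPM in the ato IPs, against 0.955 and 1.22 CPM in the wild-type IPs. The tested gut genes had no count in the wild-type inputs and at most 4 in a wild-type IP. They passed the filter through the ato libraries only, so a call lower in ato was not open to them and their share carries no weight. Of 5 genes listed as eye disc markers, 3 were lower in the ato inputs and 2 in the ato IPs. These genes may not be confined to the disc, so disc and brain cannot be told apart here. Trachea (5 tested), cuticle (3 tested) and phenoloxidase genes (3 tested), the last of the same protein superfamily as the hexamerins, had 0 called between genotypes by edgeR. At an unadjusted p below 0.05 each of these lists had 1 gene in the inputs, and in the IPs only the phenoloxidases had 1, while DESeq2 called 0. Of 7 ring gland genes 1 was higher and 1 lower in the ato inputs, and of the 7 brain markers 1 was higher there. The RNAs roX1 and roX2, of the male dosage compensation complex, were not called between genotypes by edgeR in the inputs (adjusted p = 0.0909 and 0.366) or in the IPs (0.295 and 0.207), while DESeq2 called 1 of these 2 RNAs in the inputs and 0 in the IPs. The part of these tissues in the serum and glue values was not tested.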

How the data were processed

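RNA was sequenced from 8 libraries, 2 for each group, in 4 runs each. The authors deposited raw counts for each run. Alignment was with TopHat2 2.0.12 and counting with featureCounts 1.4.4, per the submitters' processing notes. The file headers give dm3, exon features, a minimum mapping quality of 5 and no option on strand, pairs or multiple mapping. Single runs held more entries of 2 than of 1 (19755 and 14316) and more of 4 than of 3 (9440 and 7744). Counts may thus not be independent. The intervals treat them as independent and may be too narrow, and intervals and floors cover no more than counting error. Runs were summed: between them the chi-square over its degrees of freedom was 1.78 to 1.92, against 9.5 to 31.3 between replicates. Genes were filtered with filterByExpr, scaled with TMM and tested with robust quasi-likelihood F tests in edgeR 4.0.16 (R 4.3.3), with the 4 groups in a single model and Benjamini-Hochberg adjustment across 10224 genes (threshold 0.05). The SE is the log2 fold change divided by the square root of F. Permuting 2 against 2 libraries can give no p under 0.33 and was not used. The procedure was tested on simulated data, for ato IP against wild-type IP only and with a single spread for all genes. That setting does not cover genes as far apart between replicates as some serum and glue genes were. Where a group held 3 counts or fewer, the ratio comes from summed counts with an exact 95% interval, and a group at 0 was set to 3 counts over the group. Alternatives were DESeq2 1.42.0 (size factors, Wald test), no filter, the compared groups alone, a replicate block, 1 run per library and each library left out. List genes were matched by symbol or synonym. The genes, the lists and the naming rule (all 10 genes, called fat body and salivary gland genes, neighbours, the 5 genes most like each sum) were chosen with earlier results of these data known.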

Additional observations from a re-analysis of the deposited data

How the results depend on the processing

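With 2 libraries a group and low counts, the number of serum and glue genes called moved with the processing. Between the IPs it was 1, and became 2 with the DESeq2 Wald test, 4 with no filter, and 3 both for the 2 groups fitted alone and for a single run of each library. Between the inputs it was 6, and 3 with 1 run per library. In wild type, IP against input, it was 0, and 1 with no filter. In ato it was 2, and 0 with 1 run per library.

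The replicate numbers do not pair the samples by the labels, and deviations from the group means correlated at 0.0595 to 0.165 between libraries of the same number. With a replicate block the IPs gave 4 calls, the inputs 7, wild-type IP against input 4, ato IP against input 3 and the interaction 0. Over all 10224 genes the block called 323 higher and 235 lower between the IPs, and 524 and 274 between the inputs. For IP against input it called 1850 higher and 2085 lower in wild type, and 1307 and 1853 in ato. The serum and glue calls added by the block were Lsp1alpha (edgeR adjusted p = 0.0304), Lsp1gamma (0.00775) and Lsp2 (0.0116) between the IPs. Between the inputs they were Lsp1beta (0.0383) and Lsp2 (0.000768), and Sgs8 was lost (0.0524). They were Lsp1alpha (0.0221), Lsp1beta (9.03e-06), Lsp2 (0.0236) and Sgs7 (0.0374) for wild-type IP against input, and Lsp1beta (0.0291) for ato IP against input. Under the block Sgs3 turned to 0.227 and Sgs5 to 0.102 in wild type, IP against input.

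Uncalled log2 values also changed sign. Sgs3 in wild type, IP against input, was 0.0196 with DESeq2 size factors and 0.0163 with the Wald test. With 1 run per library Sgs5 was 0.218 there and Lsp1gamma 0.132 in the interaction. Leaving out both wild-type libraries of a number was chosen after seeing the data and leaves 1 wild-type library of a kind. Without those numbered 1, Sgs1 was 0.45 in the IPs, -0.776 in the inputs and 1.23 in the interaction. Sgs3 was then at 1.11 and Sgs5 at 0.905 in wild type, IP against input.

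Over the fits that left out 1 library each, the calls ranged from 1 to 5 between the IPs, 1 to 6 between the inputs, 0 to 3 for wild-type IP against input and 1 to 2 for ato IP against input, and stayed at 0 for the interaction. Log2 values that crossed 0 in these fits ranged as follows. Between the IPs Sgs1 ran from -1.36 to 0.606 and Sgs5 from -0.728 to 0.139, and between the inputs Sgs1 ran from -2.95 to 3.14. For wild-type IP against input Lsp2 ran from -0.633 to 2.14, Sgs3 from -0.765 to 1.33 and Sgs5 from -0.776 to 1.07. For ato IP against input Lsp1gamma ran from -0.0528 to 0.862, Lsp2 from -0.335 to 0.864 and Sgs8 from -0.341 to 5.5. In the interaction Lsp1alpha ran from -2.91 to 0.836, Lsp1beta from -3.09 to 0.443, Lsp1gamma from -1.2 to 0.296, Lsp2 from -1.8 to 0.981 and Sgs1 from -3.22 to 2.87. The lone library of a group is assumed to vary like the others. No value came out for 15 gene results with 1 run per library, for 8 with only the compared groups and for 1 with DESeq2. The causes were not tested.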

Other observations

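The genes whose levels went most closely with the summed serum protein genes over the 8 libraries were Ugt86Di (Pearson r = 0.977 of log2(CPM + 1)), CG31431 (0.975), fon (0.959), Obp99b (0.952) and CG15611 (0.946). These are descriptions over only 8 libraries, which differ in depth and whose labels name no batches. Ugt86Di, named for a family of glucuronosyl transferases, was at 24.0 and 19.9 CPM in the ato IPs, against 12.5 and 8.24 CPM in the wild-type IPs, and at 21.0 and 16.6 CPM in the ato inputs, against 8.75 and 4.40 CPM in the wild-type inputs. Obp99b, of the odorant-binding protein family, was at 38.3 and 28.4 CPM in the ato IPs, against 25.9 and 10.3 CPM in the wild-type IPs, and at 40.4 and 24.2 CPM in the ato inputs, against 26.7 and 6.25 CPM in the wild-type inputs. It shared with the serum sum the low values in the wild-type libraries numbered 2. For the glue sum the closest genes were Pat1 (0.985), the septate junction gene Nrx-IV (0.970), CG3814 (0.969), rols (0.967) and CG42797 (0.963). Their levels differed far less between libraries than those of the glue genes, with Nrx-IV at 177 and 177 CPM in the ato IPs, against 231 and 223 CPM in the wild-type IPs, and at 152 and 151 CPM in the ato inputs, against 211 and 194 CPM in the wild-type inputs.

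Among pairs of serum protein genes r of log2(CPM + 1) over the 8 libraries was 0.899 to 0.958. Sgs3, Sgs7 and Sgs8, the neighbours on chromosome 3L, correlated at 0.889 to 0.955 with each other, whereas Sgs1 correlated with the other glue genes at -0.11 to 0.49.

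Of the neighbours of the serum and glue genes, mthl8, hoe2 and Cpr11A were called between genotypes in the inputs, and mthl8 and hoe2 in the IPs. Over all genes tested, 7.18% were called either way in the inputs and 4.87% in the IPs. mthl8 passed the filter through wild-type libraries only and Cpr11A through ato libraries only, so a call the other way was hardly open to either. mthl8, 40123 bases to the left of Lsp1gamma and named for a family of G protein-coupled receptors, had no count in any of the 4 ato libraries, against 74 and 34 counts in the wild-type IPs and 84 and 53 in the wild-type inputs. Relative to a floor of 3 counts over the ato libraries of a kind, it was at least 34.9-fold lower in the ato IPs (edgeR adjusted p = 0.00101) and at least 37-fold lower in the ato inputs (0.000619). hoe2, 827 bases from Sgs1, had 151 and 260 counts in the ato IPs, against 82 and 52 in the wild-type IPs, and 194 and 313 in the ato inputs, against 62 and 74 in the wild-type inputs (log2 2.19 ± 0.34 in the inputs, adjusted p = 0.000347). Cpr11A, a cuticle protein gene 933 bases from Lsp1alpha, had 18 and 19 counts in the ato inputs, against 0 and 1 in the wild-type inputs (edgeR adjusted p = 0.0213). In the IPs it did not pass (0.0824). On the other side, Lsp2's neighbour CG11534 (-0.26 ± 0.26, 0.61) and Sgs3's neighbour CG7512 (0.11 ± 1.4, 0.987) did not pass in the inputs, nor in the IPs. The other tested neighbours, Pig1, chrb, GluRIIC, CG13405, CG14044, CG10793 and CG7606, passed in neither comparison.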
